A study of Mus musculus with 2 samples.

Results

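The serpins, the tissue kallikreins and the SPINK inhibitors were examined in mouse mammary basal cells grown in 3D with or without TNF-α. The genes were chosen by name, as all serpins of clades A to I except Serping1, all Klk genes and all Spink genes without names of pseudogenes, which gave 100 of the 49492 genes in the count table. They comprise 27 serpins of clade B, 35 serpins of other clades, 26 kallikreins and 12 SPINK genes. The cells came from the mammary glands of adult female mice of genotype WT and were sorted by FACS as basal cells, which the study defines as lin−CD24+CD29hi. TNF-α is a cytokine released by macrophages among other cells, and recombinant mouse TNF-α was given at 10 ng/ml over a 3D culture of 10 days. The control group is labelled as untreated, and its day of harvest is not stated separately. Whether cells of several mice were pooled is not given in the sources used here, nor is the strain for these cultures. There was 1 control library, with 44462275 counts, and 1 TNF-α library, with 53487087 counts. With a single library for each condition, a difference between them could not be set against a spread between replicates.

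Serpins are proteins of a shared fold, most of which trap a serine protease by offering an exposed loop as bait and then changing shape irreversibly, although some members have lost this activity and act as chaperones or hormone carriers. Kallikreins are secreted serine proteases encoded side by side in a single cluster, and in stratified epithelium several of them cut the junction proteins that hold cornified cells together. SPINK proteins are inhibitors built of Kazal domains, and in skin they restrain kallikreins. In the mammary gland, serpins and plasminogen activators are known for their part in the turnover of matrix around the ducts.

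The cell type was checked against markers. The basal keratins Krt14 and Krt5 had 229766 and 109438 counts in the control library and 259922 and 146872 with TNF-α. The 10 basal markers summed to 12393 CPM (counts scaled to library size) in the control and 11514 CPM with TNF-α, and Oxtr alone among them was called lower. Luminal markers were present too, with Krt8 as the most abundant of 12 genes, and they summed to 4462 and 3572 CPM. Of these, Esr1, Pgr and Prlr, which encode hormone receptors, were called lower and none was called higher. The cultures held transcripts of both epithelial layers. The 8 fibroblast markers summed to 1111 CPM in the control and 496 CPM with TNF-α. Their most abundant gene, Col6a3, was called lower with 44994 and 19311 counts, while Dcn, Fbln1 and Dpt were called higher. Col6a3 made up 90.9% of the sum in the control and 72.9% with TNF-α. The median log2 ratio of the 8 was 0.45, with 5 above 0 and 3 below. The leukocyte markers summed to 15.1 and 21.1 CPM, with Cd14 as the most abundant of 12 genes and the one called higher, Cd3e at 0 and Ptprc at 26 and 38 counts. Of the 8 with at least 10 counts, the other 6 had log2 ratios below 0, and the median was -0.41. The 6 endothelial markers summed to 8.19 and 7.70 CPM with 0 called, and Cdh5 had the most counts over both libraries. The 9 adipocyte and liver markers summed to 32.0 and 22.9 CPM, with Fga as the most abundant, Ttr called lower and Plin1 at 0. The part of these shifts in the differences of the protease and inhibitor genes was not tested.

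Of the 100 genes, 40 had no count in either library and 20 had 1 to 9 counts over both. The other 40 had at least 10 counts and were compared. A gene was called when its log2 ratio of TNF-α to control passed 1 or -1, a 2-fold difference, and the 95% interval of the ratio did not hold 1. By this rule, 8 of the 40 genes were called higher with TNF-α, 11 were called lower and 21 were not called. Across all 20771 genes with at least 10 counts, 7.39% were called higher and 5.89% lower, against 20% and 27.5% of the 40. The median log2 ratio of the 40 genes was 0.03, beside 0.0038 for all genes. It was also 0.03 when the 1 gene with no count in a library, Serpinb6e, was placed at the floor of 3 counts. Serpinb6e had 10 counts in the control and 0 with TNF-α, at least 3.99-fold lower against that floor, and it is named because of these values. The intervals cover counting error only. Reads copied by PCR and not tagged by molecule are not independent, and the spread between cultures was not measured. Lower RNA in a bulk sample can come from fewer cells of a type or less RNA per cell, and these cannot be told apart.

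Many of these calls rest on few reads. Of the 19 called genes, 10 had fewer than 50 counts over both libraries, 3 of them higher and 7 lower. Among the 16 genes with at least 200 counts, 3 were called higher, 3 lower and 10 were not called. In all 13609 genes of that depth, 4.01% were called higher and 2.87% lower. Even counts were in excess, as 618 genes had 1 count in the control library and 2172 had 2, 347 had 3 and 1068 had 4. This is the pattern of read pairs whose ends are counted singly, and the intervals given here, which treat each count as a read of its own, are then too narrow. With counts divided by 2 the interval of Klk7 went from -3.50 to -2.12 in place of -3.32 to -2.35, and that of Serpina3i from 2.41 to 4.33 in place of 2.66 to 3.99. At these counts 6 genes were called higher and 5 lower, all of them among the 8 and 11.

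**Figure D1:**
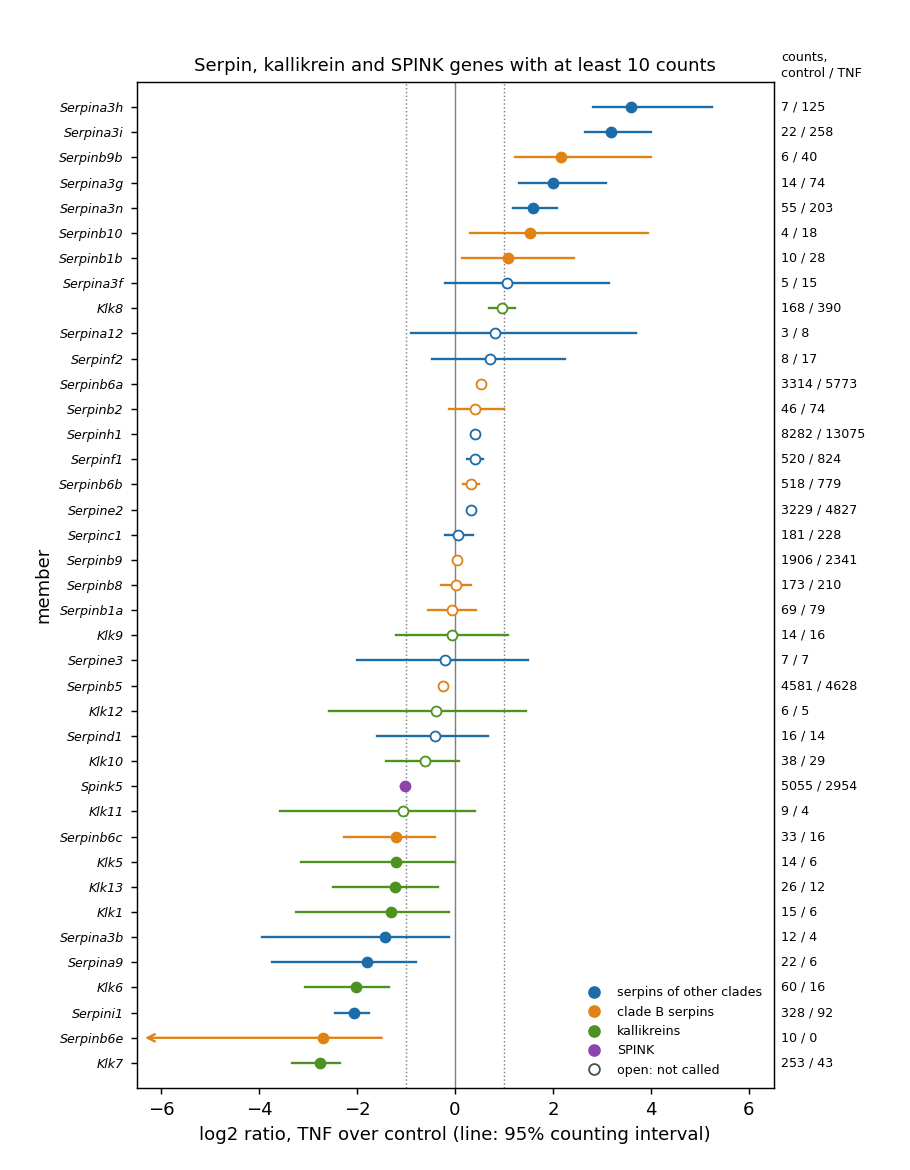
Log2 ratio of TNF-α to control for 39 of the 40 serpin, kallikrein and SPINK genes with at least 10 counts, with lines for the 95% counting interval and the counts of both libraries at the right. Filled points are called genes, dotted lines mark a 2-fold difference, the arrow marks Serpinb6e with 0 counts under TNF-α, and the values run from -2.76 for Klk7 to 3.59 for Serpina3h.

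Summed over all 100 genes, the set had 30542 counts in the control and 41197 with TNF-α, or 685 and 772 CPM. The sum was carried by a few genes. Serpinh1 made up 27.1% of it in the control and 31.7% with TNF-α. Without Serpinh1 the sums were 499 and 527 CPM. Compared per length of transcript, as RPKM (CPM per kilobase of exon), Serpinh1 was also first of the 40 genes in both libraries, at 76.1 and 100 RPKM. Serpinb5 was second in both, at 37.4 and 31.5 RPKM. Spink5 was the third in the control, at 23.7 RPKM and was at 11.6 RPKM with TNF-α, where Serpinb6a and Serpinb9 were among the genes ahead of it.

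Genes of the Serpina3 group were higher in sum with TNF-α. They are the mouse counterparts of the single human gene for antichymotrypsin, an acute phase inhibitor of cathepsin G and related proteases. All 11 of them together had 126 counts in the control and 683 with TNF-α, a log2 ratio of 2.18 (95% interval 1.90 to 2.46) which was 2.17 or 2.18 when scaled by total counts, DESeq2 or the upper quartile. Of the 6 that could be compared, 4 were called higher and 1 lower, beside 7.39% and 5.89% of all genes with at least 10 counts. Serpina3i had 22 counts in the control and 258 with TNF-α. Its log2 ratio was 3.19 (95% interval 2.66 to 3.99), a 9.12-fold difference. Serpina3h, which the GENCODE annotation lists as a transcribed pseudogene, had 7 counts in the control and 125 with TNF-α, a log2 ratio of 3.59 (95% interval 2.81 to 5.24). Serpina3n, whose protein inhibits granzyme B and cathepsin G, went from 55 counts to 203. Its log2 ratio was 1.59 (95% interval 1.19 to 2.08). Serpina3g, an intracellular member that inhibits cysteine cathepsins, had 14 counts in the control and 74 with TNF-α, a log2 ratio of 2.01 (95% interval 1.31 to 3.08).

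These copies are alike, so reads can be split between them. Stretches of 75 bases that also occur in transcripts of another gene covered 7.7% of the transcript sequence of Serpina3g, 11.0% of Serpina3h, 6.6% of Serpina3i and 1.5% of Serpina3n. The ratios of the first 3 are therefore uncertain as values of single genes. Their sum is uncertain too, because all 4 also share such stretches with Serpina3e-ps, a copy outside the set. Serpina3n, the copy with the least shared sequence of these 4, was called higher on its own. The antitrypsin genes Serpina1a to Serpina1f of the same chromosome, which make the main elastase inhibitor of plasma in the liver, had 0 counts in both libraries.

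The Serpina3 genes called higher lie in the distal part of a cluster, with members that were not called higher among them. The 24 clade A genes of the chromosome 12 cluster lie between 103614786 and 104414329 of GRCm38. Its distal 200 kb, from Serpina3f at 104214544 to the end of Serpina3n, hold 8 genes, of which 4 were called higher and 0 lower, with 108 counts in the control and 678 with TNF-α in sum. The proximal 539 kb, from Serpina10 to Serpina3c, hold 16 genes with 47 counts in the control and 23 with TNF-α, and 0 of these were called higher and 2 lower. Over all genes with at least 10 counts, 7.39% were called higher and 5.89% lower. The border between these stretches was chosen after the values were seen. Serpina9 and Serpina3b were the lower genes, also named afterwards, with 22 and 12 counts in the control and 6 and 4 with TNF-α.

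**Figure D2:**
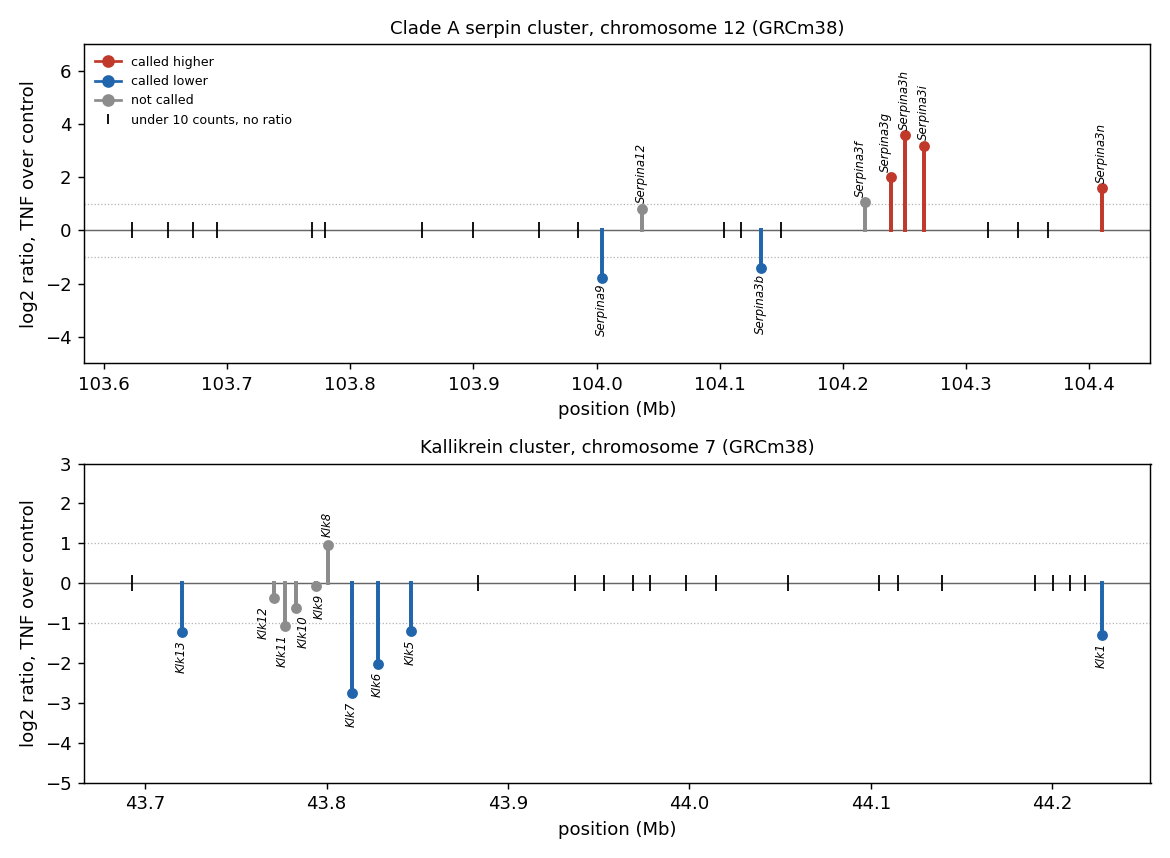
Log2 ratio of TNF-α to control along the clade A serpin cluster of chromosome 12 and the kallikrein cluster of chromosome 7, by position in Mb. Red marks genes called higher, blue genes called lower, grey genes not called and black ticks genes under 10 counts. The 4 higher clade A genes stand at the right of their cluster.

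Promoter sequence of the Serpina3 genes was read because 4 genes of the distal stretch were called higher. RefSeq windows from 250 bases before to 50 bases after the gene start (GRCm38.p6) were matched to 80 of the 100 genes and to 35 of the 40 compared, and Serpina3h, Serpina9, Serpinb1a and Spink5 were among those with no window. They were searched on both strands for the kappaB consensus, the letters bound by NF-κB factors downstream of TNF-α receptors. It was found in 8.46% of all 32851 windows, and in 15.8% of the windows of all genes called higher, 10.2% of those called lower and 10% of those compared and not called. Counted by gene, it was found in 6 of the 35 genes, or 17.1%, beside 18% of all genes called higher, 12.2% of those called lower and 11.9% of those not called. The 6 are Serpina3i, Serpina3g, Serpinh1, Klk9, Klk10 and Klk11, the last 3 named for the match alone. The first 2 were called higher and the other 4 were not called. A match describes letters and shows no binding. The capitals mark the match, which starts at -154 from the gene start in Serpina3i (chr12:104262948-104262997) and at -85 in Serpina3g (chr12:104236042-104236091), both on the plus strand. The stretch of the Serpina3f window (chr12:104214351-104214400) most like that of Serpina3i shared 78% of its bases and the one of Serpina3n (chr12:104406517-104406566) shared 62%, beside 74% for Serpina3g, and neither held the consensus there.
Serpina3i: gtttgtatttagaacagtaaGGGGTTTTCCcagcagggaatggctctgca
Serpina3g: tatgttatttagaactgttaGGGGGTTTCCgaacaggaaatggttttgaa
Serpina3f: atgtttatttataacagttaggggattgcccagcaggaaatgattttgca
Serpina3n: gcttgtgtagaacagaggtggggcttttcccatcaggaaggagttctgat

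Serpina3n was called higher without a kappaB match in its window, and Serpina3f was not called, with 5 counts in the control and 15 with TNF-α (named here as the neighbour of the other copies, after its values were seen). The letters TGANTCA, a looser form of the site bound by AP-1 factors, were searched in the same way. They were found in 7.81% of all windows. Counted by gene, they were found in 4 of the 35 compared genes with a window, or 11.4%, beside 8.97% of all genes. The share was 11.7% of all genes called higher, 9.56% of those called lower and 6.46% of those not called. The 4 are Serpinb5, Serpinb2, Serpinb10 and Serpinb8, which are the 4 compared genes of the chromosome 1 clade B cluster. The match read TGAATCA in Serpinb5, Serpinb2 and Serpinb10 and TGAGTCA in Serpinb8. Serpinb10 was the only one of these called, with 4 counts in the control and 18 with TNF-α, and it shares exon sequence with Serpinb2. This grouping was noticed after the windows were searched.

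Among serpins that act on plasminogen activators, the inhibitor typical of neurons fell. Serpini1 encodes neuroserpin, an inhibitor of the tissue-type activator, and had 328 counts in the control and 92 with TNF-α. Its log2 ratio was -2.07 (95% interval -2.44 to -1.76). Serpine2, which encodes protease nexin-1, an inhibitor of thrombin and urokinase, had 3229 and 4827 counts. Its log2 ratio of 0.32 (95% interval 0.26 to 0.38) was under the 2-fold threshold.

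The activators themselves did not pass the threshold. Of 12 genes listed around plasminogen activation, 0 were called higher and 1 (8.33%) lower, beside 7.39% and 5.89% of all genes with at least 10 counts. The median log2 ratio of the list was 0.36. Plau, which encodes urokinase, had 2675 counts in the control and 3109 with TNF-α, a log2 ratio of -0.04 (95% interval -0.12 to 0.03). Plat, which encodes the tissue-type activator, had 663 and 1324 counts, a log2 ratio of 0.74. The lower gene of the list was F3, with 4078 and 2369 counts and a log2 ratio of -1.04. It encodes the tissue factor that starts clotting and is not itself a plasminogen activator. The gene of the list with the most counts in each library was Anxa2, a cell surface receptor for plasminogen, with 16151 and 21325 counts. Relative to their targets, Serpine2 had 0.341 times the RPKM of Plau in the control and 0.439 times with TNF-α. Serpini1 had 0.424 times the RPKM of Plat in the control and 0.0595 times with TNF-α. These are ratios of transcript levels and say nothing of protein or of activity. Plau and Plat are named here as the targets of these serpins, outside the rule for named genes and after their values were seen.

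Serpinh1 encodes HSP47, a chaperone of the endoplasmic reticulum that binds folded procollagen and inhibits no protease. It had 8282 counts in the control and 13075 with TNF-α, a log2 ratio of 0.40 (95% interval 0.36 to 0.44). The interval lay above 0 and under the 2-fold threshold. Its partners in collagen folding did not move as one. Of 19 such genes, 3 (15.8%) were called higher and 0 lower, with a median log2 ratio of 0.13, beside 7.39% and 5.89% called of all genes. The 3 encode the alpha subunits of prolyl 4-hydroxylase, the enzyme that hydroxylates collagen chains. P4ha1 had 1538 counts in the control and 5153 with TNF-α, and P4ha2 had 556 and 1907. P4ha3 had 134 and 488 counts. The gene of the list with the most counts in sum of both libraries, Col4a1, which encodes a chain of basement membrane collagen, had 42432 and 29246 counts and a log2 ratio of -0.80.

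The remaining secreted serpins with at least 200 counts were not called. Serpinf1, which encodes the antiangiogenic factor PEDF, had 520 counts in the control and 824 with TNF-α, a log2 ratio of 0.40 (95% interval 0.24 to 0.57). Serpinc1, which encodes antithrombin, had 181 and 228 counts. Its log2 ratio was 0.07 (95% interval -0.21 to 0.36). Its counts are uncertain, because an exon overlaps Zbtb37 on the opposite strand, which had 1387 and 1463 counts, and the use of strand in counting is not given in the sources used here.

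Clade B serpins act mostly inside the cell, where they guard it against its own or incoming proteases. Of 27 genes, 6 had no count and 9 had 1 to 9 counts. Of the 12 compared, 3 (25%) were called higher, 2 (16.7%) lower and 7 were not called, beside 7.39% and 5.89% of all genes with at least 10 counts. The higher genes were Serpinb9b, Serpinb10 and Serpinb1b and the lower ones Serpinb6c and Serpinb6e, each with fewer than 50 counts over both libraries and named after their values were seen. Of the clade B genes with at least 200 counts, 0 were called, beside 4.01% higher and 2.87% lower of all genes of that depth. Over all 27 clade B genes the sum was 10696 counts in the control and 13997 with TNF-α, a log2 ratio of 0.13.

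Serpinb5 encodes maspin, a protein of myoepithelial cells studied as a tumour suppressor of the breast, and had the most counts of the clade over both libraries, though Serpinb6a had more with TNF-α. It had 4581 counts in the control and 4628 with TNF-α, a log2 ratio of -0.24 (95% interval -0.30 to -0.19). Serpinb6a, an inhibitor of cathepsin G, had 3314 and 5773 counts with a log2 ratio of 0.54 (95% interval 0.48 to 0.60). It overlaps exons of Nqo2, Ripk1 and 1110046J04Rik on the opposite strand, and 22.0% of its transcript sequence is shared with them, so its counts are uncertain. Serpinb6b, a close relative, had 518 and 779 counts with a log2 ratio of 0.33 (95% interval 0.17 to 0.49). Serpinb9, the inhibitor of granzyme B that protects cells from cytotoxic lymphocytes, had 1906 counts in the control and 2341 with TNF-α. Its log2 ratio of 0.04 (95% interval -0.05 to 0.12) lay within counting error of no difference. Serpinb8, an inhibitor of furin, had 173 and 210 counts with a log2 ratio of 0.02 (95% interval -0.28 to 0.32).

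Proteases of leukocytes and lysosomes, some of which clade B serpins are known to inhibit, were looked at beside them. Of 15 such genes, 9 had at least 10 counts and 0 were called in either direction. Their median log2 ratio was 0.16, and it was -0.09 with no filter and 0.31 with at least 1 CPM. The genes Gzmb, Cma1, Tpsab1 and Tpsb2, of cytotoxic lymphocytes and mast cells, had 0 counts in both libraries. Gzma, of cytotoxic lymphocytes, and Elane, the neutrophil elastase gene, each had 4 counts in the control and 0 with TNF-α. Low counts were found for Prtn3, with 27 and 29, Ctss, with 18 and 28, and Ctsg, with 8 and 4. The most abundant gene was Ctsd, a lysosomal aspartic protease, with 16781 and 27616 counts. These genes other than Ctsd were named after their values were seen.

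Kallikreins were low in these cultures and were called only in the lower direction. Of 26 genes, 14 had no count, 2 had 1 to 9 counts and 10 were compared. Of these, 5 (50%) were called lower, 0 higher and 5 were not called, beside 5.89% lower and 7.39% higher of all genes with at least 10 counts. The median log2 ratio was -1.14. This median stayed at -1.14 or -1.15 under the other scalings. It was -0.87 with a prior count of 5, -1.33 with one of 0.5, and -2.03 over the 3 kallikreins with at least 1 CPM. Summed over all 26, there were 608 counts in the control and 527 with TNF-α. The 13 Klk1b genes, rodent copies of Klk1 that are known from salivary gland, had 5 counts in the control and 0 with TNF-α in sum.

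Besides Klk7 and Klk6, the lower genes were Klk13, Klk5 and Klk1, each with fewer than 50 counts and named after their values were seen. With counts divided by 2 these 3 were not called, which left Klk7 and Klk6 as the lower kallikreins. Klk7, a chymotrypsin-like protease that cuts corneodesmosomes in skin, had 253 counts in the control and 43 with TNF-α. Its log2 ratio was -2.76 (95% interval -3.32 to -2.35), a 6.75-fold difference. Klk6, a trypsin-like protease known from brain and epithelium, had 60 and 16 counts with a log2 ratio of -2.03 (95% interval -3.06 to -1.35). Klk8, also called neuropsin, lies beside Klk7 on the chromosome and did not share this direction. It had 168 counts in the control and 390 with TNF-α, a log2 ratio of 0.95 (95% interval 0.69 to 1.22), just under the threshold, and with a fold of 1.5 as the threshold it was called higher. Klk8 overlaps an exon of 2310002F09Rik on the opposite strand, which had 69 and 106 counts, and 20.3% of its transcript sequence is shared with that gene.

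The 3 genes Klk8, Klk7 and Klk6 lie within 34 kb on chromosome 7, between 43797577 and 43832030 of GRCm38. The order of Klk7 and Klk8 by level was reversed between the libraries. In RPKM, Klk8 had 0.817 times the level of Klk7 in the control and 11.2 times with TNF-α. Without Klk8, a choice made after its values were seen, the 12 other kallikreins outside the Klk1b group had 435 counts in the control and 137 with TNF-α. With TNF-α, Klk8 alone made up 74.0% of all kallikrein counts.

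Spink5 encodes LEKTI, a large inhibitor of several Kazal-type domains that blocks Klk5 and Klk7 in skin, and was the only SPINK gene with at least 10 counts. It lies on chromosome 18 from 43963235 to 44022501. It had 5055 counts in the control and 2954 with TNF-α, a log2 ratio of -1.03 (95% interval -1.10 to -0.97). This is a 2.05-fold difference at the edge of the threshold, and its interval reaches under 2-fold. Of the other 11 SPINK genes, 8 had no count and 3 had 1 to 9 counts.

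Inhibitor and target fell to different extents. Spink5 had 7.91 times the RPKM of Klk7 in the control and 27.2 times with TNF-α. The other partner of Spink5, Klk5, had 14 counts in the control and 6 with TNF-α, and its log2 ratio of -1.21 had an interval that ended at -0.01. Klk5 is named outside the rule, after its values were seen, and it was also not called with a prior count of 5.

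Genes of the junctions and envelope of cornified cells, whose proteins these kallikreins cut or are made beside, were called in the lower direction only. Of 20 genes, 16 were compared and 9 (56.2%) were called lower, 0 higher and 7 were not called. The shares of all genes with at least 10 counts were 5.89% lower and 7.39% higher. The median log2 ratio of the 16 was -1.18. The most abundant gene, Ivl, which encodes the envelope protein involucrin, had 6467 counts in the control and 1341 with TNF-α. Krt10, a keratin of suprabasal cells, had 4433 and 214 counts, a log2 ratio of -4.62. Its partner keratin Krt1 had 1775 and 172 counts, a log2 ratio of -3.61. The barrier protein gene Flg had 440 and 32 counts, a log2 ratio of -3.95. Dsc1, which encodes a desmosomal cadherin of these layers, had 1240 and 140 counts, a log2 ratio of -3.39. Krt10, Flg, Krt1 and Dsc1 had the lowest log2 ratios of the list. The other called genes, Dsg1c, Dsg1a, Dsg1b and Casp14, had log2 ratios of -2.04, -1.57, -1.18 and -1.13. Among the 7 not called was Cdsn, with 861 and 638 counts and a log2 ratio of -0.69. Tgm1, Sprr1a and Asprv1 were not called either, with log2 ratios of -0.55, -0.61 and -0.13. Cdsn and these genes are named after their values were seen. Summed over the list, there were 463 CPM in the control and 98.3 CPM with TNF-α. Whether the kallikrein and Spink5 differences follow the number of such cells was not tested.

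Membrane-bound and secreted serine proteases outside the kallikreins were also called in the lower direction only. Of 16 genes, which include the protease-activated receptors, 13 were compared. Of these, 4 (30.8%) were called lower and 0 higher, beside 5.89% and 7.39% of all genes with at least 10 counts. The median log2 ratio was -0.69, or -0.40 with no filter. Tmprss11a, a membrane protease of the HAT family, had 3243 counts in the control and 406 with TNF-α, a log2 ratio of -3.25. Prss23 had 17464 and 7994 counts, a log2 ratio of -1.39. Htra1, a secreted protease that degrades matrix, had 3051 and 1799 counts, a log2 ratio of -1.02. The last lower gene was Tmprss11e, with 93 and 10 counts, named after its values were seen. The gene with the most counts over both libraries, St14, which encodes matriptase, an activator of kallikreins in skin, had 12409 and 16386 counts and was not called, with a log2 ratio of 0.14.

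Protease inhibitors of other families moved in both directions. Of 30 genes, 21 were compared, with a median log2 ratio of -0.04, or -0.19 with at least 1 CPM. Of the 21, 2 (9.52%) were called higher and 4 (19%) lower, beside 7.39% and 5.89% of all genes with at least 10 counts. Cst6, which encodes cystatin M, an inhibitor of cysteine proteases in cornifying epithelium, had 612 counts in the control and 212 with TNF-α, a log2 ratio of -1.78. Pi15, a peptidase inhibitor gene, had 666 and 319 counts, a log2 ratio of -1.32. The other lower genes, Wfdc5 and Wfdc15b, and the higher gene A2m had fewer than 200 counts and are named after their values were seen. Serping1, the complement inhibitor of the serpin fold left out of the set by name, was called higher with 60 and 196 counts and a log2 ratio of 1.42. The gene with the most counts summed over both libraries was Wfdc18, which encodes a small secreted protein with a whey acidic protein domain, with 23849 and 27861 counts and a log2 ratio of -0.04.

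The remaining 21 genes with at least 10 counts had 10 to 148 counts over both libraries, of which 3 were called higher, 7 lower and 11 were not called. By position, 90 of the 100 genes lay in 8 clusters, defined as members with gaps of up to 1 Mb, and 10 lay alone. The chromosome 13 clade B cluster of 15 genes had 2 of its 8 compared genes called higher and 2 lower. The chromosome 1 clade B cluster had 1 of 4 called higher and 0 lower. Shares over all genes with at least 10 counts were 7.39% higher and 5.89% lower. The kallikrein cluster of chromosome 7 is the only one with more than 1 called gene in which the calls had a single direction. This holds at the 2-fold threshold, as Klk8 was called higher with a fold of 1.5. With counts divided by 2, Klk13, Klk5 and Klk1 of this cluster were not called.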

How the data were processed

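RNA of the 3D cultures grown from sorted mammary basal cells was sequenced from SMARTER libraries. The authors deposited counts of reads per gene, not normalized, with the summed exon length of each gene as the other value used. Aligner, counting tool and read filters are not given in the sources used here, and the submitters' processing notes name GRCm38 and mm10. Of the 100 genes, 90 had the same coordinates in GENCODE M21.

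Library sizes were scaled by TMM in edgeR (version 4.0.16, R 4.3.3), so that the TNF-α size was 1.20 times that of the control. Log2 ratios of CPM used a prior count of 2 and genes with at least 10 counts summed, worth 0.224 CPM in the control and 0.187 CPM with TNF-α. Intervals are 95% Clopper-Pearson intervals of the TNF-α share of counts, turned into ratios. With 1 library per group no model could be fitted and no p-value is given. Calls were tested on simulated data with independent counts. Read pairs and a spread between cultures were not simulated, so that test says nothing of the errors they bring. Calculations ran in scipy 1.17.1, pandas 2.3.3 and numpy 2.4.6 under Python 3.11.15, and plots in matplotlib 3.10.9.

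Named are all members with at least 200 counts and called members with at least 50, and of each partner list the most counted gene and up to 4 called genes of 200 counts or more. The members and lists were chosen with earlier results of these data known. Alternatives were size factors of DESeq2 (version 1.42.0), upper quartile and total count scaling, other filters, prior counts and folds, counts divided by 2 and removal of overlapping members. Reactive centre loops were not analysed here, and 1 member is counted but not reported here by name.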

Additional observations from a re-analysis of the deposited data

How the results depend on the processing

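No paired analysis was possible because there was a single library for each condition, and for the same reason leaving out a replicate was not possible. For the 19 members taken by the naming rule, all 152 log2 ratios under 8 alternatives of scaling, filter, prior count and halved counts lay within the 95% counting interval of the reported value. Scaling by total counts, DESeq2 or the upper quartile left the 8 higher and 11 lower members called. Fewer genes tested or a stricter rule lowered the counts. With at least 1 CPM, 5 members were higher and 4 lower, and 836 and 659 of all genes. A fold of 4 gave 4 and 4 members, and 540 and 342 genes. With the whole interval past 2-fold, 4 members were lower, Spink5 not among them, and 776 genes were higher and 561 lower. Counts divided by 2 gave 5 lower members. A fold of 1.5 gave 2522 genes higher and 2130 lower. Chosen after seeing the data, a minimum of 100 counts gave 4 and 3 members, and 721 and 543 genes, and leaving out members with shared stretches over at least 5% of their sequence gave 4 higher members. The median of the members, 0.03, was -0.11 with no filter, 0.33 with at least 1 CPM and 0.20 with counts divided by 2, so it has no stable sign, and the cause was not tested. The median of the clade B serpins, 0.18, was -0.06 with no filter, 0.04 with at least 1 CPM and 0.33 with counts divided by 2. Depth limits the members with under 50 counts most, as 6 of the 11 lower calls were lost with counts divided by 2.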
